A study of Rattus norvegicus with 9 samples.

Results

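The genes of cholesterol synthesis, of its control by the SREBP transcription factors, and of fatty acid synthesis were followed in rat neural stem cells (NSCs) that differentiated with or without exosomes. A given list of 35 genes defined the set by name, with lipoprotein receptors left out, and all 35 were found among the 23953 genes of the count table. They comprised 7 early enzymes of the mevalonate pathway, 11 squalene and later sterol enzymes, 5 genes of SREBP control, 1 sterol transfer gene, 8 genes of fatty acid synthesis and desaturation, and 3 genes of the LXR receptors and a target. Second-generation NSCs, said to come from the spinal cord of newborn rats, were kept in a differentiation medium of DMEM/F12 with B-27, N-2, FGF, bFGF and FBS in all 3 groups. The Con group received the medium alone, the Exo group received exosomes (Exos) of bone marrow mesenchymal stem cells (BMSCs), and Exos given to the pLV-Exo-Wnt5a group came from BMSCs transduced with a lentiviral vector encoding rat Wnt5a. According to the study's methods, the donors of the Exo group carried the empty vector, so that the pLV-Exo-Wnt5a and Exo groups differed by the Wnt5a insert in the donor cells, whereas the Con group lacked exosomes altogether. The NSCs themselves carried no transgene. Each group had 3 RNA-seq libraries, 9 in all, and the labels name neither separate animals nor separate cultures, so p-values measure the spread between these libraries, which may be technical.

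Animal cells build cholesterol from acetyl-CoA through mevalonate, isoprenoids, squalene and lanosterol. When sterols in the endoplasmic reticulum are low, SCAP carries the SREBP precursors to the Golgi, where proteases release the active transcription factors, and INSIG proteins hold the complex back when sterols are plentiful. SREBP2 chiefly drives sterol genes and SREBP1 chiefly drives fatty acid genes, while the liver X receptors (LXRs) sense oxysterols and promote sterol export. The brain makes its own cholesterol, because lipoproteins of the blood do not cross into it, and differentiating neurons and glia need sterols and fatty acids for their membranes. SREBP commonly acts on promoters together with the factor NF-Y, which binds the CCAAT box, and Sp1, which binds GC-rich sites.

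Promoters of 28 of the 35 genes were found in RefSeq (rat build GRCr8, 250 bases before to 50 after the annotated start), Scd1 through its rat synonym. No promoter was matched for Pmvk, Fdft1, Sqle, Stard4, Fasn, Acaca and Elovl6. Searched on both strands, CCAAT was present in 20 of the 28 promoters (71.4%) and in 37.5% of all 33469 rat promoters of the same length. The GC box GGGCGG was present in 21 (75%) against 33.1%, the E-box CACGTG in 3 (10.7%, Insig1, Sc5d and Scap) against 6.42%, and the sterol-regulatory-element-like TCACNCCAC in 0 against 1.12%. Each motif was counted on its own, whether or not its matches overlapped those of another. A match is a description of the sequence only, and the absence of a match says nothing of a factor. The 250 bases before the start are shown for Hmgcs1 and Idi1, the mevalonate genes with the largest differences between the groups, and for Insig1 and Srebf2, control genes that differed little. Capitals mark CCAAT or its reverse complement ATTGG, and all are given 5′ to 3′ on the strand of the gene.
Hmgcs1 (chr2:53382054-53382303, plus strand): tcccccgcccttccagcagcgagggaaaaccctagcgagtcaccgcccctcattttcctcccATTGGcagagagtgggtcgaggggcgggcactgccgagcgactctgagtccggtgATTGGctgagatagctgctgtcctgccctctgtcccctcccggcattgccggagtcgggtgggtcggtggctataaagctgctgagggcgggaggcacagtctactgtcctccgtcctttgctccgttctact
Idi1 (chr17:66547525-66547774, minus strand): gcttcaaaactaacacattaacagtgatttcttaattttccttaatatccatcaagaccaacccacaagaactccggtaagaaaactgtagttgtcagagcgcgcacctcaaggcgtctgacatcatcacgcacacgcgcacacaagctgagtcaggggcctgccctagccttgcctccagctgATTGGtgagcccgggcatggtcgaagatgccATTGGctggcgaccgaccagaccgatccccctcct
Insig1 (chr4:8057770-8058019, minus strand): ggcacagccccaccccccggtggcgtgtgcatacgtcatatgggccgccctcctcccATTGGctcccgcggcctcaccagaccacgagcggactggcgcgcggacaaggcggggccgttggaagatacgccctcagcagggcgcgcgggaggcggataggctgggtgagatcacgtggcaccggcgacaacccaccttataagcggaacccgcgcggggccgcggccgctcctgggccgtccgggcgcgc
Srebf2 (chr7:115543057-115543306, plus strand): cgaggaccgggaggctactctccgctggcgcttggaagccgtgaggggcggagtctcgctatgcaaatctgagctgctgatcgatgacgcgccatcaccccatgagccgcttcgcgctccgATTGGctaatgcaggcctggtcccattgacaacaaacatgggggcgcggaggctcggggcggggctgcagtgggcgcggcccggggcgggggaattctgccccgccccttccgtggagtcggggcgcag
In these windows ATTGG began 188 and 133 bases before the start of Hmgcs1, 66 and 35 bases before that of Idi1, 193 before that of Insig1 and 129 before that of Srebf2. A CCAAT box was thus present in each of the promoters shown, and its part in the differences between the groups was not tested.

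Total counts lay between 32765138 and 40427647 per library, so that 3 counts, the most that a count of 0 allows, corresponded to 0.0727 to 0.0908 CPM (the count divided by the library size after TMM normalization over the 9 libraries, scaled to a common size), for counting error only. Every one of the 35 genes passed the filter on low counts in each comparison, with single counts between 39 (Nr1h3) and 309141 (Scd2). Con replicate 1 stood apart, with a TMM factor of 0.95 against 0.996 to 1.02 and a median log2(CPM + 1) of 4.13 against 4.24 to 4.34. Gene symbols and NCBI gene numbers in the table are those of mouse, whereas the labels name rat cells, and levels are compared only within a gene, since gene lengths are not used here. Of 6 spinal cord markers (Hox genes), the 3 in the table had at most 3 counts in every library, whereas 6 forebrain markers summed to 492 to 614 CPM, so that the markers of the labelled tissue were absent or nearly so. In these bulk libraries, fewer cells of a type and less RNA per cell cannot be told apart.

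The levels of the 35 genes varied less across the libraries, at the median, than those of all genes, to which they were not matched by level. The ratio of the highest to the lowest of the 9 CPM values had a median of 1.31 over these genes and 1.53 over the 15458 genes kept by the same filter across the 9 libraries. It exceeded 2 for 3 of the 35 (8.57%), Hmgcs1 (2.64), Idi1 (3.27) and Nr1h3 (2.99), and for 32.7% of all genes. Scd2, a stearoyl-CoA desaturase, and Acly, which makes cytosolic acetyl-CoA from citrate, varied least, with ratios of 1.1 and 1.11. The coefficient of variation within a group had a median of 9.31% in Con, 5.87% in Exo and 4.9% in pLV-Exo-Wnt5a, against 13.1%, 9.25% and 9.75% over all genes. It was largest in the Con group for 25 of the 35 genes (71.4%; 53% of all genes).

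**Figure D1:**
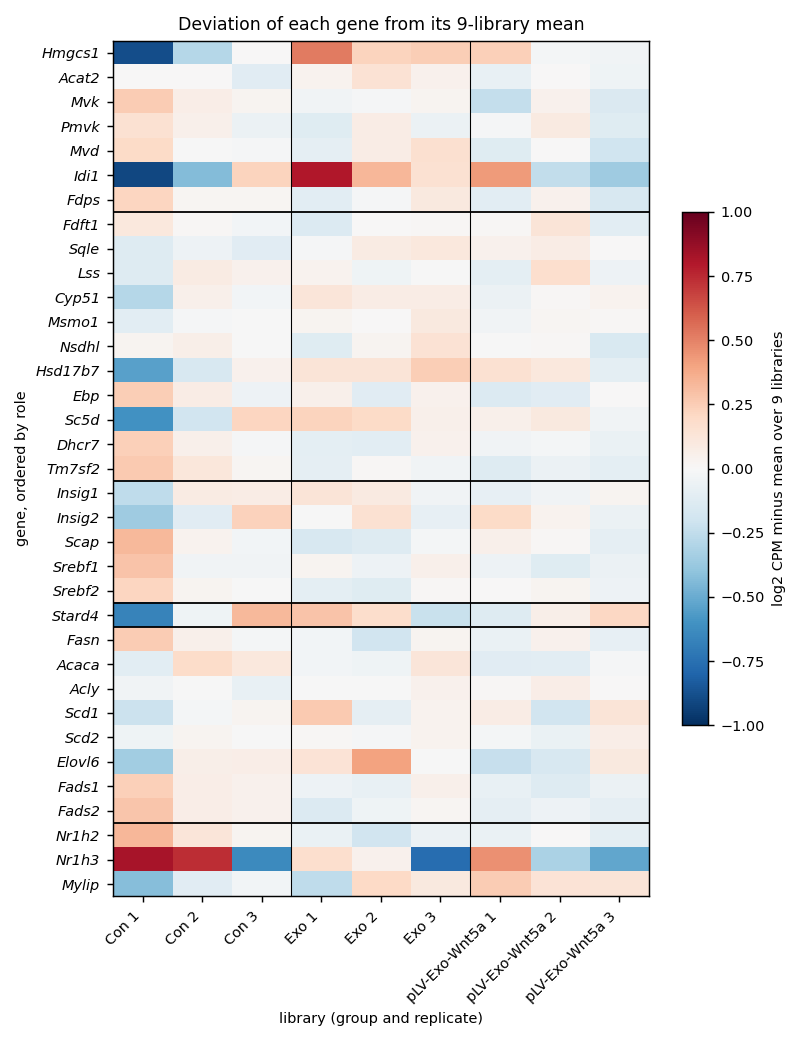
Rows are the 35 genes, ordered by role, columns are the 9 libraries, and colour gives the deviation of log2 CPM from the gene's mean over the 9 libraries. The strongest deviations are in Con replicate 1 and in the rows of Hmgcs1, Idi1, Stard4 and Nr1h3, and no block of rows separates the 3 groups.

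Con replicate 1 held the highest value of 15 genes and the lowest of 14, so it was the extreme library for 29 of 35 (82.9%), against 56.3% of all genes. Its lowest values were those of Hmgcs1, Idi1, Sqle, Lss, Cyp51, Msmo1, Hsd17b7, Sc5d, Insig1, Insig2, Stard4, Scd1, Elovl6 and Mylip. Its highest values were those of Mvk, Pmvk, Mvd, Fdps, Ebp, Dhcr7, Tm7sf2, Scap, Srebf1, Srebf2, Fasn, Fads1, Fads2, Nr1h2 and Nr1h3. Genes of 1 pathway therefore lay at opposite ends in the same library, the HMG-CoA synthase gene Hmgcs1 at its lowest and the farnesyl diphosphate synthase gene Fdps at its highest. The next most frequent extreme was Exo replicate 1, highest for 6 genes and lowest for 3.

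**Figure D2:**
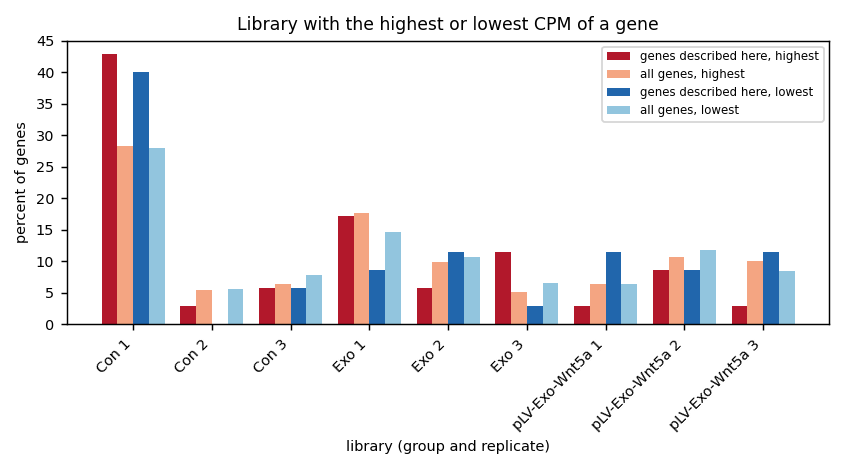
Bars give the percent of genes whose highest or lowest CPM over the 9 libraries fell in each library (x axis), for the 35 genes and for all 15458 genes. Con replicate 1 has the tallest bars of both kinds, with 15 genes highest and 14 lowest of 35, against 28.3% and 28% of all genes.

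The first comparison asked what BMSC-Exos changed in differentiating NSCs, with the Exo group set against Con. No member of the sterol and SREBP set passed Q under 0.05 in edgeR's quasi-likelihood test (Q is the p adjusted by Benjamini-Hochberg over all 15070 genes tested), where 0.00664% of all genes passed, and DESeq2 on the same 6 libraries called 1, Hmgcs1 (1.74% of the genes to which it gave a Q). The smallest Q was 0.265. At an unadjusted p under 0.05, 3 members were higher in Exo (Hmgcs1, Idi1 and Hsd17b7; 8.92% of all genes) and 2 lower (Scap and Nr1h2; 6.01% of all genes), and DESeq2 on these 6 libraries gave 4 in all (14.3% of all genes). The 2 groups did not overlap for 10 members (28.6% of 35; 23.3% of all genes), with Exo above Con for Hmgcs1, Acat2, Sqle, Cyp51, Msmo1 and Hsd17b7, and below it for Mvk, Tm7sf2, Fads2 and Nr1h2. The median log2 fold change (log2FC) was -0.005 over the 35 and 0.00197 over all genes, with 16 higher and 19 lower. The 95% interval of the difference lay within a 2-fold change in either direction for 32 of 35 genes (91.4%; 77.1% of all genes), the others being Hmgcs1, Idi1 and Nr1h3.

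Among the early mevalonate enzymes, the 2 with the largest differences were Hmgcs1 and Idi1. Hmgcs1 (NCBI gene 208715), the cytosolic HMG-CoA synthase that precedes the rate-limiting reductase, was measured at 263, 398 and 486 CPM in Con replicates 1, 2 and 3, at 696, 566 and 576 CPM in Exo, and at 574, 478 and 473 CPM in pLV-Exo-Wnt5a. All 3 Exo libraries lay above all 3 Con libraries, and Con replicate 1 was the lowest of the 9. The log2FC of Exo over Con was 0.68 (standard error (SE) 0.185, 95% interval 0.27 to 1.09) and Q = 0.265 by edgeR's quasi-likelihood test. DESeq2 gave Q = 0.0238 on the 6 libraries and 0.0119 on all 9, edgeR without a filter on low counts gave 0.00301, and edgeR without Con replicate 3 gave 0.0262. Over the 13 alternatives Q ranged from 0.00301 to 0.571 and was under 0.05 in 4, while the unadjusted p was under 0.05 in each of the 13. Without Con replicate 1 the log2FC was 0.46 with Q = 0.181, again from edgeR.

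Idi1 (NCBI gene 319554), the isomerase of isopentenyl diphosphate, was measured at 6.43, 8.99 and 14.1 CPM in Con, at 21.0, 15.3 and 13.5 CPM in Exo, and at 16.3, 10.2 and 9.47 CPM in pLV-Exo-Wnt5a. Its Con and Exo ranges overlapped, since Con replicate 3 exceeded Exo replicate 3. The log2FC of Exo over Con was 0.75 (SE 0.267, Q = 0.277, edgeR's quasi-likelihood test), with Q between 0.0347 and 0.594 over the 13 alternatives and under 0.05 in 2 of them. The log2FC was 0.52 without Con replicate 1 and 1.10 without Con replicate 3 (Q = 0.387 and 0.0347, edgeR).

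The other 5 mevalonate genes differed by less. Acat2, the cytosolic thiolase of the first step, was measured at 208, 208 and 192 CPM in Con, 213, 230.0 and 213 CPM in Exo, and 197, 209 and 201 CPM in pLV-Exo-Wnt5a. Its Exo values lay above both other groups without overlap, by a log2FC of 0.11 over Con (SE 0.074, Q = 0.462, edgeR). Mvk, mevalonate kinase, was measured at 83.8, 73.3 and 71.6 CPM in Con, 68.6, 69.5 and 71.3 CPM in Exo, and 59.6, 72.3 and 63.5 CPM in pLV-Exo-Wnt5a. The Exo values of Mvk lay just below those of Con, with a log2FC of -0.13 (SE 0.0865, Q = 0.478, edgeR). In pLV-Exo-Wnt5a, 2 of the 3 Mvk values lay below every Exo and Con library and the other lay within the Con range, with a log2FC of -0.23 from Con (SE 0.105, Q = 0.598, edgeR) and an unadjusted p under 0.05 in 6 of the 13 alternatives. The later kinase Pmvk ranged from 58.9 to 71.3 CPM, the decarboxylase Mvd from 115 to 152 CPM, and Fdps from 217 to 281 CPM over the 9 libraries, each with overlapping groups in every comparison.

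Of the 11 squalene and later sterol enzymes, 5 were higher and 6 lower in Exo than in Con, with a median log2FC of -0.00406. Sqle, the squalene epoxidase that is a second control point of the pathway, was measured at 207, 218 and 209 CPM in Con, at 224, 239 and 244 CPM in Exo, and at 233, 238 and 227 CPM in pLV-Exo-Wnt5a. Both exosome groups lay above Con without overlap, with log2FC of 0.16 (SE 0.072, Q = 0.339) for Exo and 0.14 (SE 0.0761, Q = 0.652) for pLV-Exo-Wnt5a in edgeR, 2 comparisons that share the Con libraries. Hsd17b7, a 3-keto-sterol reductase, was measured at 21.9, 28.7 and 32.99 CPM in Con, at 34.9, 35.1 and 37.9 CPM in Exo, and at 35.5, 34.4 and 29.9 CPM in pLV-Exo-Wnt5a. Con replicate 1 was the lowest library and Exo exceeded Con without overlap, by a log2FC of 0.37 (SE 0.143, Q = 0.297, edgeR).

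Cyp51, the lanosterol demethylase, was measured at 180, 227 and 215 CPM in Con, at 239, 231 and 231 CPM in Exo, and at 210, 221 and 225 CPM in pLV-Exo-Wnt5a. Exo lay above both other groups, with a log2FC over Con of 0.17 (SE 0.0921, Q = 0.386, edgeR), which ranged from 0.07 to 0.24 when each replicate was left out. Msmo1, a C4-methyl sterol oxidase, was measured at 116, 124 and 124 CPM in Con, at 127, 125 and 134 CPM in Exo, and at 122, 126 and 126 CPM in pLV-Exo-Wnt5a. Its Exo values exceeded the Con values by a log2FC of 0.09 (SE 0.0735, Q = 0.564, edgeR), with Con replicate 1 the lowest of the 9.

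Tm7sf2, a sterol C14-reductase, was measured at 53.8, 48.4 and 45.5 CPM in Con, at 42.2, 45.04 and 43.7 CPM in Exo, and at 41.1, 42.9 and 41.9 CPM in pLV-Exo-Wnt5a. It was the opposite case, with both exosome groups below Con, by a log2FC of -0.17 (SE 0.0946, Q = 0.391) for Exo and of -0.23 (SE 0.101, Q = 0.587) for pLV-Exo-Wnt5a in edgeR. Dhcr7, which makes cholesterol from 7-dehydrocholesterol in the last step of its branch, was measured at 232, 204 and 195 CPM in Con, at 184, 183 and 203 CPM in Exo, and at 192, 194 and 188 CPM in pLV-Exo-Wnt5a. Only the pLV-Exo-Wnt5a values of Dhcr7 lay below Con without overlap, by a log2FC of -0.14 (SE 0.0876, Q = 0.672, edgeR). The remaining 5 overlapped between groups in every comparison, namely the squalene synthase Fdft1 (272.6 to 329 CPM), the lanosterol synthase Lss (138 to 169 CPM), Nsdhl (76.3 to 94.1 CPM), Ebp (13.3 to 17.4 CPM) and Sc5d (34.7 to 61.7 CPM).

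**Figure D3:**
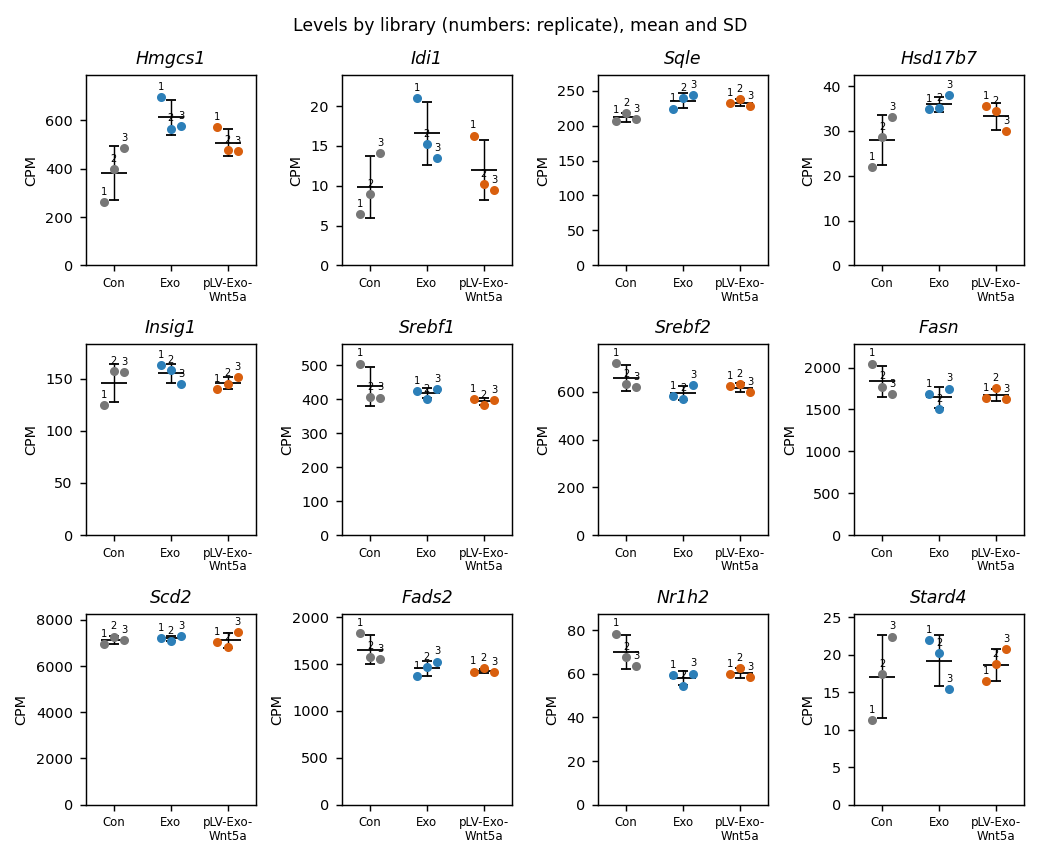
Points are the CPM of single libraries, numbered by replicate, for selected genes by group (Con, Exo and then pLV-Exo-Wnt5a), with the mean and SD (n = 3), on linear axes from 0. Hmgcs1 shows all 3 Exo libraries (566 to 696 CPM) above all 3 Con libraries (263 to 486 CPM), and the other panels show smaller shifts or overlap.

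The genes of SREBP control differed little between the groups. Srebf2, which encodes the SREBP that drives sterol genes, was measured at 719, 632 and 619 CPM in Con, at 581, 572 and 627 CPM in Exo, and at 622, 632 and 599 CPM in pLV-Exo-Wnt5a. The groups overlapped, and the log2FC of Exo over Con was -0.15 (SE 0.0838, 95% interval -0.33 to 0.04, edgeR). Insig1, the feedback inhibitor and itself a classical SREBP target, was measured at 124, 157 and 156 CPM in Con, at 163, 158 and 145 CPM in Exo, and at 140, 145 and 152 CPM in pLV-Exo-Wnt5a. Con replicate 1 alone lay below the other 8 libraries, and the log2FC of Exo over Con was 0.09 (SE 0.101, 95% interval -0.13 to 0.32, edgeR). This log2FC ranged from -0.02 to 0.15 when each replicate was left out.

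Scap, the escort of the SREBP precursors, was measured at 271, 221 and 212 CPM in Con, at 194, 197 and 213 CPM in Exo, and at 224, 217 and 203 CPM in pLV-Exo-Wnt5a. Con and Exo overlapped at Con replicate 3 and Exo replicate 3, with a log2FC of -0.22 (SE 0.0984, Q = 0.334, edgeR). Without Con replicate 1 the log2FC of Scap was -0.11 (Q = 0.507, edgeR), and its unadjusted p was under 0.05 in 6 of the 13 alternatives. Srebf1, which encodes SREBP1, was measured at 504, 405 and 404 CPM in Con, at 423, 401 and 429.7 CPM in Exo, and at 400.1, 382 and 398 CPM in pLV-Exo-Wnt5a. The pLV-Exo-Wnt5a values of Srebf1 lay below all libraries of both other groups, by a log2FC of -0.08 against Exo (SE 0.0543, Q = 0.63) and -0.16 against Con (SE 0.0987, Q = 0.672) in edgeR. The log2FC against Con ranged from -0.21 to -0.04 when each replicate was left out. Insig2, the second INSIG gene, ranged from 12.2 to 18.3 CPM and the sterol transfer gene Stard4 from 11.3 to 22.4 CPM, both lowest in Con replicate 1 and highest in Con replicate 3.

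The fatty acid genes were evenly divided between Exo and Con, with 4 of 8 higher and 4 lower. Fasn, the fatty acid synthase, was measured at 2047, 1773 and 1687 CPM in Con, at 1684, 1501 and 1749 CPM in Exo, and at 1639, 1760.0 and 1622 CPM in pLV-Exo-Wnt5a. The groups overlapped, with a log2FC of Exo over Con of -0.16 (SE 0.0988, 95% interval -0.38 to 0.06, edgeR). Scd2, a main desaturase of the brain, was measured at 6945, 7277 and 7142 CPM in Con, at 7208, 7085 and 7300 CPM in Exo, and at 7039, 6827 and 7488 CPM in pLV-Exo-Wnt5a. It was level, with log2FC of 0.02 for Exo over Con (SE 0.0864) and -0.01 for pLV-Exo-Wnt5a over Exo (SE 0.0586).

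Fads1 and Fads2, the delta-5 and delta-6 desaturases that make polyunsaturated fatty acids, had similar patterns. Fads2 was measured at 1832, 1580 and 1552 CPM in Con, at 1370, 1465 and 1527 CPM in Exo, and at 1420, 1454 and 1418 CPM in pLV-Exo-Wnt5a. Both exosome groups lay below Con without overlap, by a log2FC of -0.19 for Exo (SE 0.0917, Q = 0.357) and -0.21 for pLV-Exo-Wnt5a (SE 0.0914, Q = 0.587) in edgeR. Without Con replicate 1 these were -0.11 (Q = 0.513) and -0.13 (Q = 0.423) in edgeR. Fads1 was measured at 1159, 1028 and 1014 CPM in Con, at 948, 934 and 1018 CPM in Exo, and at 933, 901 and 946 CPM in pLV-Exo-Wnt5a. Its pLV-Exo-Wnt5a values lay below Con without overlap, by a log2FC of -0.205 (SE 0.086, Q = 0.585, edgeR), while its Exo and Con values overlapped. Acly was measured at 499, 510 and 484 CPM in Con, at 510, 508 and 526 CPM in Exo, and at 515, 536 and 512 CPM in pLV-Exo-Wnt5a, the last group just above Con with a log2FC of 0.06 (SE 0.077, Q = 0.831, edgeR). Acaca (133 to 164 CPM), the acetyl-CoA carboxylase, Scd1 (512 to 714 CPM) and the elongase Elovl6 (6.59 to 11.1 CPM) overlapped between groups in every comparison.

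The LXR genes had few counts except Nr1h2. Nr1h2, which encodes LXRβ, was measured at 78.6, 67.9 and 63.7 CPM in Con, at 59.5, 54.7 and 60.2 CPM in Exo, and at 59.8, 62.8 and 58.4 CPM in pLV-Exo-Wnt5a. Both exosome groups lay below Con without overlap, by a log2FC of -0.27 for Exo (SE 0.0977, Q = 0.284) and -0.22 for pLV-Exo-Wnt5a (SE 0.102, Q = 0.601) in edgeR. Without Con replicate 1 these were -0.19 (Q = 0.368) and -0.13 (Q = 0.65) in edgeR. Mylip, an LXR target that marks lipoprotein receptors for degradation, was measured at 4.22, 5.24 and 5.57 CPM in Con, at 4.75, 6.51 and 6.06 CPM in Exo, and at 6.77, 6.25 and 6.201 CPM in pLV-Exo-Wnt5a. Only pLV-Exo-Wnt5a lay above Con without overlap, by a log2FC of 0.36 (SE 0.181, Q = 0.636, edgeR). Nr1h3, which encodes LXRα, ranged from 1.09 to 3.24 CPM on 39 to 123 counts, and its interval for Exo over Con, -1.44 to 0.30, reached past a 2-fold decrease.

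The second comparison asked what Wnt5a overexpression in the donor cells added, with the pLV-Exo-Wnt5a group set against Exo. No sterol or SREBP gene passed Q under 0.05 in edgeR's quasi-likelihood test, where 0.436% of 15132 genes passed, nor in DESeq2 on the same libraries, and the smallest Q was 0.298. At an unadjusted p under 0.05, 0 members were higher (5.07% of all genes) and 1 was lower (6.91% of all genes), and DESeq2 on these 6 libraries gave 2 in all (12.4% of all genes). That gene was Hmgcs1, with a log2FC of -0.26 (SE 0.0931, Q = 0.298, edgeR) and overlapping groups, since pLV-Exo-Wnt5a replicate 1 (574 CPM) exceeded Exo replicate 2 (566 CPM). Its log2FC was -0.16 without Exo replicate 1 (Q = 0.636, edgeR), and its unadjusted p was under 0.05 in 8 of the 13 alternatives, not including those without Exo replicate 1 or pLV-Exo-Wnt5a replicate 2 or 3, nor DESeq2 (Q = 0.822) or edgeR (Q = 0.817) on all 9 libraries. The 2 groups did not overlap for 3 members (8.57% of 35; 16.5% of all genes), Acat2, Cyp51 and Srebf1, each lower in pLV-Exo-Wnt5a. Of the 35 genes, 12 were higher and 23 lower, with a median log2FC of -0.0476 against 0.00493 over all genes. The intervals were the narrowest of the 3 comparisons, with a median half-width of 0.156 (0.255 over all genes), and for all 35 genes they lay within a 2-fold change in either direction, as for 80.7% of all genes. The largest difference was that of Idi1, a log2FC of -0.46 (SE 0.213, Q = 0.429, edgeR), which became -0.25 (Q = 0.836) when Exo replicate 1 was left out and -0.74 (Q = 0.23, edgeR) when pLV-Exo-Wnt5a replicate 1 was.

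The third comparison set the pLV-Exo-Wnt5a group against Con, and so shares its libraries with the first 2. No sterol or SREBP gene passed Q under 0.05 in edgeR's quasi-likelihood test, where 0.0862% of 15089 genes passed, nor in DESeq2 on the same libraries, and the smallest Q was 0.585. At an unadjusted p under 0.05, 1 member was higher (Hmgcs1; 4.2% of all genes) and 3 were lower (Tm7sf2, Fads1 and Fads2; 4.15% of all genes), and DESeq2 on these 6 libraries also gave 4 in all (8.19% of all genes). Hmgcs1 had a log2FC of 0.41 (SE 0.174, Q = 0.585, edgeR) with overlapping groups. It was 0.20 without Con replicate 1 and 0.62 without Con replicate 3 (Q = 0.607 and 0.151, edgeR), and its unadjusted p was under 0.05 in 9 of the 13 alternatives. The 2 groups did not overlap for 9 members (25.7% of 35; 16.6% of all genes), with Sqle, Acly and Mylip above Con and Dhcr7, Tm7sf2, Srebf1, Fads1, Fads2 and Nr1h2 below it. The median log2FC was -0.0282 over the 35 and 0.00405 over all genes, with 13 higher and 22 lower. The interval lay within a 2-fold change for 34 genes (97.1%; 80.5% of all genes), Nr1h3 being the other.

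**Figure D4:**
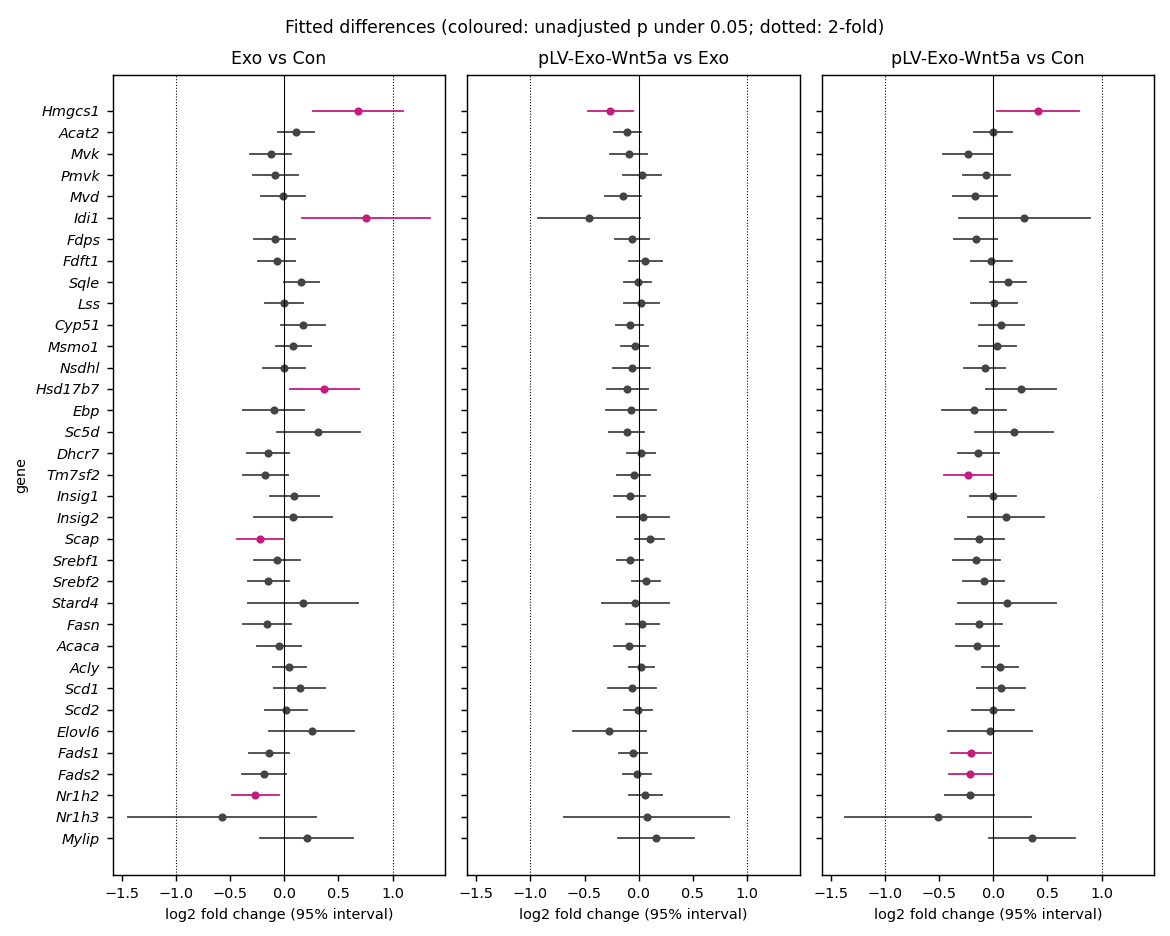
Each panel is 1 comparison, with the fitted log2 fold change of each of the 35 genes (x axis) as a point and its 95% interval as a bar. Coloured points have an unadjusted p under 0.05 and dotted lines mark a 2-fold change, which the intervals of 32, 35 and 34 of the 35 genes do not reach in the Exo against Con, pLV-Exo-Wnt5a against Exo and pLV-Exo-Wnt5a against Con panels.

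Leaving out Con replicate 1 changed the genes with a small unadjusted p. Between Exo and Con, the members with an unadjusted p under 0.05 were then Hmgcs1 (log2FC 0.46), Idi1 (0.52), Hsd17b7 (0.22) and Nr1h2 (-0.19), with Q between 0.181 and 0.397 in edgeR, and 12.1% of all genes had such a p. Between pLV-Exo-Wnt5a and Con they were Acaca (-0.23), Fads1 (-0.14) and Fads2 (-0.13), with Q between 0.278 and 0.423 in edgeR, against 9.3% of all genes. Since Con replicate 1 was the lowest library for Hmgcs1, leaving it out had to make the difference from Con smaller.

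Markers of cell types also differed between the groups and in Con replicate 1. Of 8 neuron markers, 6 had an unadjusted p under 0.05 and were higher in Exo than in Con, where 8.92% of all genes were, with a median log2FC of 0.45. Con replicate 1 was the lowest of the 9 libraries for the same 6, Map2, Dcx, Syt1, Snap25, Stmn2 and Nefl, as it was for Hmgcs1 and Idi1, whereas Tubb3 was measured there at 2030 CPM against 1720 and 1650 CPM in the other Con libraries, and Rbfox3 at 87.5 CPM against 88.4 and 85.8 CPM. In pLV-Exo-Wnt5a against Exo, the comparison in which Hmgcs1 and Idi1 had negative log2FC, 3 of the 8 neuron markers were lower at an unadjusted p under 0.05 (6.91% of all genes) and 0 higher, with a list median of -0.05. Dcx, a gene of young neurons, fell in that comparison (log2FC -0.60, SE 0.0814, Q = 0.0113, edgeR), and was measured at 51.3, 75.9 and 97.3 CPM in Con, at 115, 117 and 98.6 CPM in Exo and at 75, 76.2 and 66.3 CPM in pLV-Exo-Wnt5a. The other 2 were Map2 (-0.48, Q = 0.0759) and Syt1 (-0.18, Q = 0.385, edgeR). In pLV-Exo-Wnt5a against Con, 3 neuron markers were higher at an unadjusted p under 0.05 (4.2% of all genes) and 0 lower. The list median was 0.155 there, with Dcx (-0.05) and Map2 (-0.04) near the Con level, while Hmgcs1 had a log2FC of 0.41. The summed level of the neuron markers overlapped, at 2810 to 2910 CPM in Con, 2790 to 3290 in Exo and 2610 to 3340 in pLV-Exo-Wnt5a. Most of this sum came from Tubb3, at 1520 to 2050 CPM.

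Summed over 8 genes, astrocyte markers lay at 4990 to 6120 CPM in Con, 4900.0 to 4960 in Exo and 6560 to 6910 in pLV-Exo-Wnt5a. Gfap, the intermediate filament of astrocytes, rose from a mean of 2227 CPM in Exo to 4024 CPM in pLV-Exo-Wnt5a (log2FC 0.86, SE 0.0532, Q = 3.36e-05, edgeR). The list as a whole had a median log2FC of -0.16 there, with Slc1a2 (-0.42), Slc1a3 (-0.205) and Gja1 (-0.29) lower and Gfap and Aldh1l1 (0.22) higher at an unadjusted p under 0.05. The sum of 8 neural stem cell markers was 2770 to 3170 CPM in Con, 2350 to 2830 in Exo and 2780 to 3620 in pLV-Exo-Wnt5a. Vim alone gave 1240 to 2360 CPM of these sums, and it rose in pLV-Exo-Wnt5a over Exo (log2FC 0.62, SE 0.109, Q = 0.0389, edgeR). Nes (0.54, Q = 0.212, edgeR) was the only other marker of this list with an unadjusted p under 0.05 there. The list median was 0.05, with Hes5 below Exo without overlap (-0.09) and Prom1 (0.17) and Msi1 (0.05) above it. The sum of 10 oligodendrocyte markers was 2880 to 3320 CPM in Con, 2680 to 2920 in Exo and 2580 to 2860 in pLV-Exo-Wnt5a. Of these, the myelin genes Mbp and Mag lay below Con in Exo (log2FC -0.44 and -0.67, Q = 0.265 for each, edgeR) and above Exo in pLV-Exo-Wnt5a (0.57 and 0.71, Q = 0.161 and 0.149, edgeR), without overlap in either comparison. Microglia markers (8 genes) summed to 7.83 to 9.66 CPM in Con, 3.01 to 3.99 in Exo and 7.41 to 9.9 in pLV-Exo-Wnt5a. The sum of 6 fibroblast markers was 23.4 to 31.9 CPM in Con, 20.6 to 23.4 in Exo and 21.9 to 22.3 in pLV-Exo-Wnt5a, with the last group below Con, but the median log2FC over the 5 tested was 0.12 for Exo and 0.08 for pLV-Exo-Wnt5a over Con. Of these, Pdgfrb lay below Con without overlap in both exosome groups (log2FC -0.74 for Exo with Q = 0.265 and -0.67 for pLV-Exo-Wnt5a with Q = 0.29, edgeR), while Col3a1 lay above Con without overlap in Exo (0.46, Q = 0.337, edgeR) and Dcn, Col1a1 and Col1a2 overlapped. The sums of endothelial and proliferation markers overlapped between the groups, from 4.2 to 7.96 and from 87.4 to 129 CPM. The endothelial marker Pecam1, with few counts, lay above Con without overlap in pLV-Exo-Wnt5a (means of 0.516 and 0.298 CPM, log2FC 0.80, Q = 0.665, edgeR). The part of these markers in the differences of the sterol genes was not tested.

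The wider pathway was followed in 4 lists of other genes, none of which had a member with Q under 0.05 in edgeR in any comparison. Their counts at an unadjusted p under 0.05 stand against 8.92% of all genes higher and 6.01% lower in Exo against Con, 5.07% and 6.91% in pLV-Exo-Wnt5a against Exo, and 4.2% and 4.15% in pLV-Exo-Wnt5a against Con. In the list of SREBP processing genes, 0 of 8 were higher and 1 was lower in Exo than in Con, and 0 passed in the other 2 comparisons. That gene was Mbtps1, the site-1 protease that makes the first cut in the SREBP precursors, with 184, 174 and 167 CPM in Con and 159, 148 and 161 CPM in Exo. Among 16 tested isoprenoid and other sterol genes, 2 were higher and 3 lower in Exo than in Con, 0 higher and 1 lower (Nus1) in pLV-Exo-Wnt5a than in Exo, and 0 higher and 4 lower in pLV-Exo-Wnt5a than in Con. The 3 with the smallest p in Exo against Con were Stard3, a late endosomal sterol transfer protein (log2FC -0.31, SE 0.0983, Q = 0.265), Npc2, which carries sterols out of lysosomes (-0.26, SE 0.0904, Q = 0.277), and Pdss1 of ubiquinone synthesis (0.63, SE 0.227, Q = 0.28), in edgeR. In pLV-Exo-Wnt5a against Con they were Stard3 (-0.31), Npc1 (-0.24), the membrane partner of Npc2, and Npc2 (-0.28), with Q between 0.505 and 0.529 in edgeR. Stard3 was measured at 68.7, 55.8 and 58.8 CPM in Con, 51.5, 48 and 48.3 CPM in Exo and 48.4, 48 and 51.3 CPM in pLV-Exo-Wnt5a, so both exosome groups lay below Con.

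Among 20 tested genes of other fatty acid and lipid synthesis, 4 were higher and 1 lower in Exo than in Con, 3 higher and 0 lower in pLV-Exo-Wnt5a than in Exo, and 2 higher and 0 lower in pLV-Exo-Wnt5a than in Con. Me1, the malic enzyme that supplies NADPH for lipid synthesis, was measured at 58.6, 65.4 and 65.9 CPM in Con, at 99.8, 81.7 and 87.1 CPM in Exo, and at 99.6, 77.3 and 79.8 CPM in pLV-Exo-Wnt5a. Both exosome groups lay above Con without overlap, by a log2FC of 0.50 for Exo (SE 0.0972, Q = 0.265) and 0.43 for pLV-Exo-Wnt5a (SE 0.111, Q = 0.354) in edgeR. Gpam, which starts glycerolipid synthesis, was measured at 289, 276 and 303 CPM in Con, at 314, 293 and 294 CPM in Exo, and at 359, 332 and 413 CPM in pLV-Exo-Wnt5a. The pLV-Exo-Wnt5a group exceeded both others, by a log2FC of 0.30 over Exo (SE 0.0791, Q = 0.151) and 0.34 over Con (SE 0.0928, Q = 0.386) in edgeR. Of 6 LXR targets, 1 was higher in Exo than in Con (Abcg1), 2 were lower in pLV-Exo-Wnt5a than in Exo, and 0 passed in pLV-Exo-Wnt5a against Con. Abca1, a sterol exporter, was measured at 101, 132 and 162 CPM in Con, at 189, 156 and 147 CPM in Exo, and at 126, 95.4 and 144 CPM in pLV-Exo-Wnt5a, with a log2FC of -0.42 against Exo (SE 0.135, Q = 0.241, edgeR). The exporter Abcg1 lay at 19.9 to 21.4 CPM in Con, 24 to 25.3 in Exo and 18.5 to 23.2 in pLV-Exo-Wnt5a, above both other groups in Exo.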

How the data were processed

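RNA-seq gave 9 libraries of NSCs, 3 for each treatment. The authors deposited a table of raw gene counts, all of them whole numbers. The study's methods name HISAT2 and DESeq2, while the submitters' processing notes list Bowtie2, RSEM 1.3.1 and DESeq2 1.4.5. Build, annotation and counting options are not given in the sources used here, so reads shared by related genes (Scd1 and Scd2, Insig1 and Insig2) may have been split, and antisense overlap could not be examined. No column was left without a sample.

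Genes were kept by filterByExpr, normalized by TMM and tested in pairs of groups (6 libraries each) with edgeR's quasi-likelihood test (edgeR 4.0.16, R 4.3.3), with Benjamini-Hochberg adjustment over all genes tested. SEs and 95% intervals came from the test statistic. The steps were also run on simulated data, drawn around a mean level per gene, with added fold changes and no outlying library such as Con replicate 1. Alternatives were RLE size factors, DESeq2 1.42.0 on 6 or 9 libraries, no filter, a minimum of 10 counts per library, edgeR on 9 libraries, fold limits, the replicate number as a block, and leaving out each replicate.

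The members and lists were chosen with earlier results of these data known. Values in every library are given for members with an unadjusted p under 0.05 or non-overlapping groups in any comparison and for Srebf2, Insig1, Fasn and Scd2. Other pathway genes are named by the smallest p, up to 3 per list and comparison, and those given here were taken from these. Libraries of the same group varied beyond sampling noise (chi-square per degree of freedom 7.33 to 48.4). Of the spinal cord markers, 3 were not analysed here, and protein sequences were not used here.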

Additional observations from a re-analysis of the deposited data

How the results depend on the processing

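For the 35 genes, the count at Q under 0.05 in Exo against Con was 0 in edgeR, 1 with DESeq2 on 6 or on 9 libraries (1.74% and 3.48% of the genes given a Q), 2 without a filter on low counts (1.93%), and 0 to 2 when each replicate was left out, with 2 without Con replicate 3 (2.4%). It was 0 in the other 2 comparisons under every alternative run. The count at an unadjusted p under 0.05 in Exo against Con was 5 (14.9% of all genes had such a p), became 2 with an absolute log2FC above 0.58, and ranged from 2 (without Exo replicate 2, 8.64% of all genes) to 7 (without Con replicate 3, 23.4%) over the replicates left out, with 3 without Con replicate 2 (10.8%) or Exo replicate 3 (12%). In pLV-Exo-Wnt5a against Exo it was 1 (12%), became 2 with DESeq2 on 6 libraries (12.4%) or without the filter (10.1%), 0 with DESeq2 (7.97%) or edgeR (7.41%) on 9 libraries or with the fold limit, and ranged from 1 to 2 over the replicates left out, with 2 without Exo replicate 3 (13.4%) or pLV-Exo-Wnt5a replicate 1 (10.2%) or 2 (9.39%). In pLV-Exo-Wnt5a against Con it was 4 (8.35%), became 7 with DESeq2 (11.1%) or edgeR (10.9%) on 9 libraries, 0 with the fold limit, and ranged from 0 (without pLV-Exo-Wnt5a replicate 1, 4.07%, and without Con replicate 2, 6.13%) to 10 (without Con replicate 3, 14.4%), with 1 without pLV-Exo-Wnt5a replicate 3 (7.61%). The median log2FC ranged from -0.0575 to 0.0173, from -0.0634 to -0.0134, and from -0.0724 to -0.0152 in the 3 comparisons over the replicates left out. The causes were not tested. With 3 libraries per group, differences below about the interval half-width could not be resolved even without adjustment over genes. That half-width had a median of 0.156 to 0.216 on the log2 scale. Larger differences also failed at Q under 0.05, such as that of Hmgcs1 in Exo over Con (log2FC 0.68, Q = 0.265, edgeR).

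Same-numbered libraries of different groups correlated between -0.425 and 0.191 in their deviations from the group means. With 3 libraries per group, these values cannot show whether same-numbered libraries shared a culture or a batch. With the replicate number as a block, the counts at Q under 0.05 were 0 in all 3 comparisons (0%, 0.767% and 0.252% of all genes). Those at an unadjusted p under 0.05 were 4, 2 and 1 (9.4%, 12.4% and 9.23% of all genes).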
